A study of Homo sapiens with 12 samples.

Results

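DCHS1, the FAT cadherins FAT1 and FAT4, and 7 genes of the Hippo-YAP pathway were examined in A375 cells, a human melanoma cell line, with and without knockdown of the m6A demethylase ALKBH5. The 10 genes were picked by symbol from the 29696 genes of the expression table and are DCHS1, FAT1, FAT4, LATS1, LATS2, AMOTL2, YAP1, WWTR1, TEAD1 and ANKRD1. They were chosen with the expression values and peaks of these same libraries already known. Their levels and differences are therefore given as a description, with no test. All peaks of the 10 genes in the deposited peak lists were taken with them.

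Both groups were A375 cells infected with lentivirus. The shALKBH5 group carried a short hairpin RNA against ALKBH5, and the shCtrl group carried a control hairpin, although its labels give the genotype as wild type. Each group had 3 input libraries, which gave the expression values, and 3 libraries of RNA immunoprecipitated (IP) with an m6A antibody. Which ALKBH5 hairpin the cells carried is not given in the sources used here, and whether the replicates came from separate cultures is not stated for these libraries. The methods say in general that experiments were repeated independently. If the libraries were not, p-values measure only the spread between these libraries, which may be technical. Expression is in FPKM, which divides fragment numbers by the length of the transcript and by library size, so levels can be set side by side between genes. Values are listed in the order of replicates 1, 2 and 3, means are given ± SD over 3 libraries, and log2 fold changes are shALKBH5 over shCtrl on log2(FPKM + 0.1) with their standard error (SE).

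ALKBH5 itself was at 3.39, 3.92 and 3.12 FPKM in shALKBH5 libraries and at 19.3, 17.8 and 17.6 FPKM in shCtrl libraries, so the groups matched their labels. FPKM summed to between 212760 and 223231 per library, and libraries correlated at r of 0.981 to 0.984 within a group and 0.929 to 0.934 between groups. Of the melanocyte lineage markers, SOX10 was high in both groups (means of 181 and 184 FPKM), TYR and DCT were near 0, and S100B was at 82.1 ± 3.03 FPKM in shALKBH5 against 32.9 ± 1.35 FPKM in shCtrl cells (log2 fold change 1.32, adjusted p = 1.01e-06, limma). MITF and PMEL were low, at 1.26 and 0.611 FPKM in shALKBH5 against 0.777 and 0.237 FPKM in shCtrl cells, with PMEL below the filter. MITF passed narrowly (adjusted p = 0.0475, limma), its libraries overlapped, and it did not pass with no filter, after median-ratio rescaling, without the trend, with the replicate block, or without shALKBH5 replicate 1, shALKBH5 replicate 3, shCtrl replicate 1 or shCtrl replicate 3. The lineage markers summed to between 262 and 267 FPKM in shALKBH5 and between 214 and 224 FPKM in shCtrl libraries. Of 13 markers of other cell types, 9 were in the table, and their summed level was 42.1 to 45.1 FPKM in shALKBH5 libraries against 17.5 to 19.8 FPKM in shCtrl libraries. CD68 made up most of that sum, with means of 40.4 and 16.2 FPKM. LUM was also higher, at 2.61 against 1.16 FPKM (1.09, adjusted p = 0.000515, limma). KRT14 was lower, at 0.369 against 0.961 FPKM (-1.22), and passed the filter of 0.5 FPKM only through its shCtrl libraries. EPCAM, CDH1, PECAM1 and CDH5 were near 0 in both groups. The part of these shifts in the results was not tested. In bulk RNA, fewer cells that express a gene and less RNA per cell cannot be told apart.

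DCHS1 is the human Dachsous cadherin, a very large cell surface protein that binds FAT4 on the neighbouring cell. Dachsous and FAT cadherins are known for planar cell polarity and for control of tissue growth. In the Hippo pathway the kinases MST1 and MST2 activate LATS1 and LATS2, which phosphorylate the coactivators YAP (from YAP1) and TAZ (from WWTR1) and keep them out of the nucleus. Unphosphorylated YAP and TAZ bind the TEAD transcription factors and switch on genes such as ANKRD1, CCN1, CCN2 and AMOTL2, and several of these targets feed back on the pathway. ALKBH5 removes m6A, the methyl mark on adenosines that lies mostly around stop codons and in 3'UTRs of mRNA and that reader proteins use to change mRNA decay and translation.

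TEAD factors recognise the motif GGAATG, which reads CATTCC on the opposite strand, so the RefSeq promoter windows (GRCh38.p14, 250 bases before to 50 bases after each start site) were searched for it on both strands. A window was present for 7 of the 10 genes, without DCHS1, FAT4 and TEAD1, and 4 of those, ANKRD1, AMOTL2, YAP1 and LATS2, held the motif. Over all genes with a window, 16.7% of 27305 held it, and over the windows themselves 14.03% of 35116 did. Of 13 further YAP and TAZ target genes with a window, 6 held it. The latter are CCN2, AXL, FOXF2, NUAK2, PTPN14 and TGFB2. Of these, CCN2 and AXL fell, FOXF2 rose, NUAK2 and PTPN14 did not pass the test of expression and TGFB2 was below its filter. Among the targets with a window but no motif, MYOF, CCDC80 and NT5E fell and IGFBP3 and FJX1 rose. F3 did not pass and RBMS3 was below the filter. Printed are the matches of the members and 1 of 3 in CCN2, a classical YAP target, in 30 bases of the gene's own strand with the motif in capitals.
ANKRD1, 220 bases before the start site, chr10:90921290-90921319, minus strand: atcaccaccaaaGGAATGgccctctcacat
ANKRD1, 128 bases before the start site, chr10:90921198-90921227, minus strand: gacactgagtctGGAATGaaaattcacctg
AMOTL2, 69 bases before the second of its start sites, chr3:134374499-134374528, minus strand: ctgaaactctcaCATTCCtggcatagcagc
YAP1, 162 bases before the start site, chr11:102110273-102110302, plus strand: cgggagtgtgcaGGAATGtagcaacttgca
LATS2, 9 bases after the start site, chr13:21061560-21061589, minus strand: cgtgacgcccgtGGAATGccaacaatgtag
CCN2, 169 bases before the start site, chr6:131951524-131951553, minus strand: ttttcagacggaGGAATGctgagtgtcaag
A match describes letters and does not show that a TEAD factor was bound there. The windows of FAT1, WWTR1 and LATS1 did not hold the letters.

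Of the 10 genes, 5 had all shALKBH5 values below all shCtrl values (DCHS1, FAT4, AMOTL2, YAP1 and ANKRD1), 3 had them above (LATS1, LATS2 and TEAD1), and the libraries of FAT1 and WWTR1 overlapped. After median-ratio rescaling of the libraries 2 had them above, since those of LATS2 then overlapped. Over the 12985 genes that averaged 0.5 FPKM or more and were tested, the groups did not overlap for 67.0%, with 38.0% higher and 29.0% lower, so a separation of the groups is the usual state of a gene in this comparison. By adjusted p under 0.05 (limma), 61.0% of these genes were called. Of the 10 genes, 9 passed the expression filter and FAT4 did not.

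**Figure D1:**
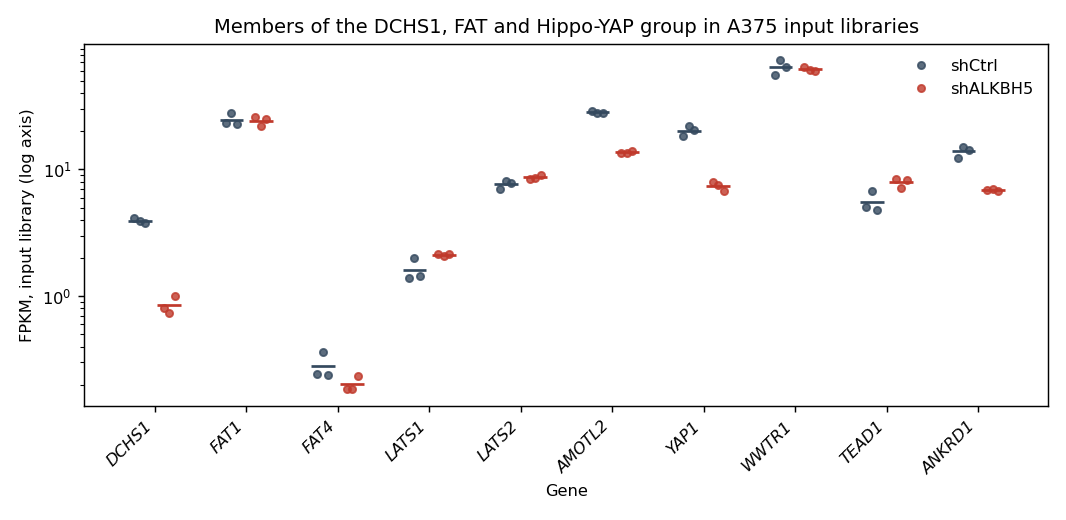
FPKM of the 10 genes in the 6 input libraries (vertical log axis, 1 point per library, horizontal bars for the group means, shCtrl and shALKBH5 side by side). DCHS1, AMOTL2, YAP1 and ANKRD1 sat lower in all shALKBH5 libraries, FAT1 and WWTR1 overlapped, and the means of the group ran from 0.202 FPKM for FAT4 to 64.2 FPKM for WWTR1.

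Among the cadherins, DCHS1 showed the largest difference and its partners did not share its size. DCHS1 (ENSG00000166341, chromosome 11, 6621330 to 6655809, minus strand) was at 0.803, 0.739 and 0.997 FPKM in shALKBH5 cells and at 4.12, 3.95 and 3.78 FPKM in shCtrl cells. The highest shALKBH5 library thus lay far below the lowest shCtrl library, and the means were 0.846 ± 0.135 and 3.95 ± 0.170 FPKM. The level in shCtrl cells was 4.67 times that in shALKBH5 cells, and the log2 fold change was -2.11 (SE 0.117). Of all genes tested, 0.809% had a log2 fold change as low or lower. With a pseudocount of 1 in place of 0.1 it was -1.43, since DCHS1 was below 1 FPKM after knockdown.

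FAT4, the cadherin that DCHS1 binds, was the lowest of the 10 genes, with 0.186, 0.184 and 0.235 FPKM in shALKBH5 and 0.241, 0.362 and 0.238 FPKM in shCtrl cells. Its groups did not overlap, but by a margin of thousandths of an FPKM between shALKBH5 replicate 3 and shCtrl replicate 3, and without the expression filter its log2 fold change was -0.32 (SE 0.205). FAT1, a cadherin that is mutated in several carcinomas, was far more abundant, with 25.8, 22.0 and 25.0 FPKM in shALKBH5 and 23.1, 27.7 and 22.8 FPKM in shCtrl cells. These values interleaved, with means of 24.3 ± 2.04 and 24.5 ± 2.74 FPKM and a log2 fold change of -0.01 (SE 0.0921). FAT1 exceeded DCHS1 by 32.2, 29.7 and 25.0 times in shALKBH5 libraries and by 5.60, 7.01 and 6.02 times in shCtrl libraries. DCHS1 thus stood below FAT1 and above FAT4 in both groups, and farther below FAT1 after knockdown.

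The kinases LATS1 and LATS2 were slightly higher in shALKBH5 cells. LATS1 (chromosome 6, 149658153 to 149718105) was at 2.16, 2.06 and 2.16 FPKM in shALKBH5 and at 1.39, 1.99 and 1.45 FPKM in shCtrl cells, for which the fit gave 0.40 on the log2 scale (SE 0.137). LATS2 (chromosome 13, 20973036 to 21061586) was at 8.41, 8.63 and 9.10 FPKM against 6.96, 8.05 and 7.86 FPKM, a log2 fold change of 0.19 (SE 0.0694), or 0.12 after median-ratio rescaling of the libraries. For LATS1 the gap between the groups depended on shCtrl replicate 2, which lay just under the lowest shALKBH5 library, and the log2 fold change was 0.55 without it. Both groups held more LATS2 than LATS1, by 4.10 ± 0.185 times in shALKBH5 and 4.82 ± 0.701 times in shCtrl cells.

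AMOTL2, an angiomotin that binds YAP at cell junctions and is itself a YAP target, was lower after knockdown. It was at 13.5, 13.4 and 13.9 FPKM in shALKBH5 and at 29.0, 28.0 and 28.1 FPKM in shCtrl cells (ENSG00000114019, chromosome 3, 134355874 to 134375479). The replicates of each group lay close together, with means of 13.6 ± 0.233 and 28.4 ± 0.534 FPKM, a ratio of 2.08 and a log2 fold change of -1.05 (SE 0.0395).

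The 2 coactivators differed from each other. YAP1 (ENSG00000137693, chromosome 11, 102110447 to 102233424, plus strand) was at 8.00, 7.53 and 6.79 FPKM in shALKBH5 and at 18.4, 21.9 and 20.5 FPKM in shCtrl cells. Its means of 7.44 ± 0.611 and 20.3 ± 1.78 FPKM differed by a factor of 2.72, with a log2 fold change of -1.43 (SE 0.0843), and the groups lay far apart. WWTR1, which encodes TAZ, was at 64.8, 60.9 and 59.3 FPKM in shALKBH5 and at 56.0, 72.5 and 64.0 FPKM in shCtrl cells. The shALKBH5 values lay inside the range of the shCtrl values, and the log2 fold change was -0.05 (SE 0.0898). WWTR1 was the more abundant of the pair in every library. The ratio of WWTR1 to YAP1 was 8.10, 8.09 and 8.74 in shALKBH5 libraries and 3.04, 3.30 and 3.13 in shCtrl libraries, so its ranges did not overlap.

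TEAD1, a DNA-binding partner of both coactivators, was at 8.48, 7.12 and 8.29 FPKM in shALKBH5 and at 5.04, 6.81 and 4.80 FPKM in shCtrl cells. All shALKBH5 libraries were higher, with shCtrl replicate 2 nearest to them, and the log2 fold change was 0.53 (SE 0.137), or 0.68 without that library. ANKRD1, an ankyrin repeat protein and a widely used readout of YAP and TAZ activity, was at 6.87, 6.98 and 6.80 FPKM in shALKBH5 and at 12.2, 15.1 and 14.3 FPKM in shCtrl cells. Its shALKBH5 libraries were nearly equal and all below the shCtrl libraries, with means of 6.88 ± 0.0908 and 13.9 ± 1.48 FPKM and a log2 fold change of -0.99 (SE 0.0796). A log2 fold change under -1 was found for DCHS1, YAP1 and AMOTL2, and for 6.53% of all genes tested.

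The library shCtrl replicate 2 held the highest of the shCtrl values for 8 of the 10 genes, against 40.7% of all genes tested. Without it, the log2 fold changes of FAT1 and WWTR1 were 0.08 and 0.04, still close to 0, and those of the other members past the filter kept their direction. Leaving out each library in turn, DCHS1 ranged from -2.22 to -2.02.

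In order of level, shCtrl cells had WWTR1 at the top, then AMOTL2, FAT1, YAP1, ANKRD1, LATS2, TEAD1, DCHS1, LATS1 and FAT4, with no overlap between neighbours. In shALKBH5 cells the order was WWTR1, FAT1, AMOTL2, LATS2, TEAD1, YAP1, ANKRD1, LATS1, DCHS1 and FAT4. There LATS2 and TEAD1, TEAD1 and YAP1, and YAP1 and ANKRD1 overlapped between libraries and cannot be ranked. YAP1 and ANKRD1 thus stood above LATS2 and TEAD1 in shCtrl cells and level with or below them in shALKBH5 cells, and DCHS1 passed from above LATS1 to below it.

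The genes whose pattern over the 6 libraries was most like that of DCHS1 were E2F8, CLIP2, DLG5, COL6A1 and TLE5, with Pearson r between 0.999 and 1.00 on log2(FPKM + 0.1). E2F8 was at 0.355, 0.316 and 0.413 FPKM in shALKBH5 and at 1.51, 1.43 and 1.44 FPKM in shCtrl libraries. The 6 points fall into the 2 groups, whose difference they share, and 14.4% of the other tested genes reached an r of 0.95. Among the members, r to DCHS1 was 0.996 for AMOTL2, 0.974 for YAP1 and 0.971 for ANKRD1. It was 0.18 for WWTR1, 0.095 for FAT1, -0.78 for LATS1, -0.78 for LATS2 and -0.81 for TEAD1.

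The wider pathway was read from 7 lists of genes that are not members, 91 genes in all with each gene counted once. These lists too were chosen with earlier results of these data known. Their counts and p-values therefore describe the listed genes and are no independent check on the pathway. Of these, 77 were tested, and by limma with Benjamini-Hochberg adjustment over all genes 21 were higher, 30 were lower and 26 did not pass 0.05. Their median log2 fold change was -0.11, against 0.09 over all genes tested, of which 34.7% were higher and 26.2% lower.

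**Figure D2:**
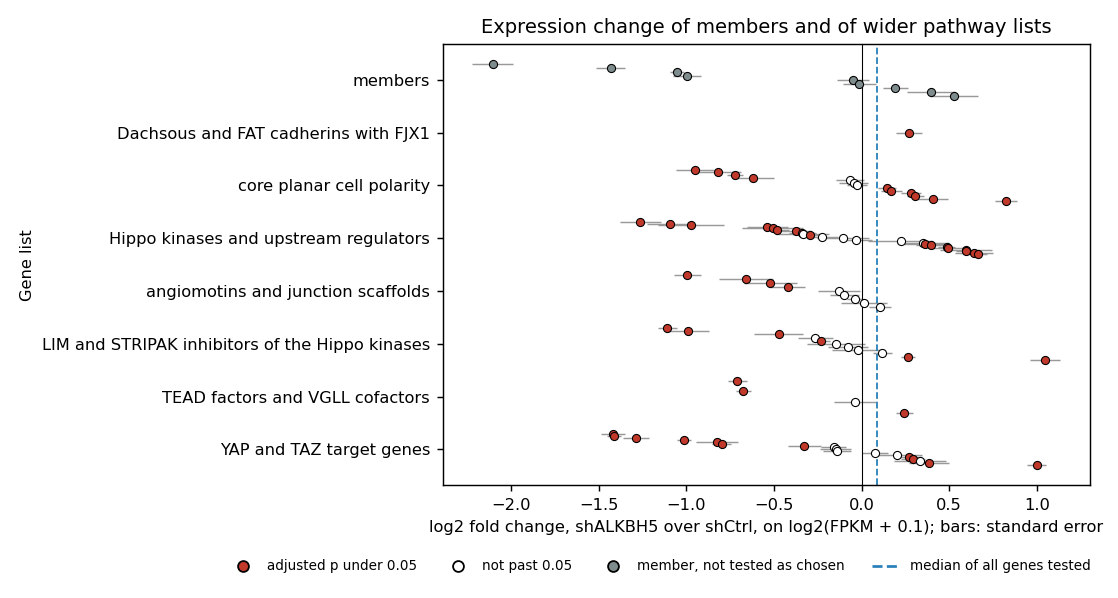
Log2 fold change of each tested gene, shALKBH5 over shCtrl, with its standard error (horizontal axis), for 9 members and the 7 wider lists (vertical axis). Grey points are members, which were not tested, red points passed an adjusted p of 0.05, open points did not, and the dashed line is the median of all genes tested at 0.09. All wider lists but that of Dachsous and FAT cadherins, which has 1 tested gene, had more points left of that line than right of it.

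The other Dachsous and FAT genes were barely expressed. DCHS2 had means of 0.0628 and 0.153 FPKM in shALKBH5 and shCtrl cells and FAT3 had 0.358 and 0.580 FPKM, and both stayed below the filter, as did FAT2. FJX1, the human counterpart of the Golgi kinase Four-jointed that phosphorylates Dachsous and FAT cadherin domains in flies, was the 1 tested gene of this list. It rose from 15.0 ± 1.35 to 18.1 ± 1.05 FPKM, a log2 fold change of 0.27 (SE 0.0751, adjusted p = 0.0159, limma). It no longer passed without shALKBH5 replicate 3, without shCtrl replicate 3 or after median-ratio rescaling of the libraries.

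Of the 16 core planar cell polarity genes, 13 were tested, 6 were higher, 4 were lower and 3 did not pass. The receptor FZD6 fell from 5.05 to 2.56 FPKM (log2 fold change -0.95, adjusted p = 0.00021, limma), the atypical cadherin CELSR1 fell from 1.07 to 0.560 FPKM (-0.82) and the pseudokinase PTK7 fell from 13.1 to 7.87 FPKM (-0.72). PRICKLE3 rose from 2.80 to 5.04 FPKM (0.82), VANGL1 from 2.41 to 3.23 FPKM (0.41) and the Wnt effector DVL3 from 11.5 to 14.2 FPKM (0.31). This list moved both ways, with a median of -0.03.

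All 23 Hippo kinases and upstream regulators were tested, and 8 were higher, 9 were lower and 6 did not pass. The MST kinases differed in direction, with STK3 close to the expression filter. STK4, which encodes MST1, rose from 5.93 ± 0.839 to 8.33 ± 0.499 FPKM (log2 fold change 0.49, adjusted p = 0.00507, limma). STK3, which encodes MST2, was at 0.710 ± 0.113 FPKM in shCtrl and 0.311 ± 0.033 FPKM in shALKBH5 cells (-0.97). It averaged 0.510 FPKM over the 6 libraries and passed the filter of 0.5 FPKM only through its shCtrl libraries. No p is therefore given for it, although it is among the 9 lower. STK4 was the more abundant in every library. Their scaffold SAV1 fell from 5.59 to 3.96 FPKM (-0.48), and NF2, the membrane scaffold merlin that recruits LATS kinases, rose from 7.14 to 10.0 FPKM (0.49). The largest falls in this list were those of the RAS-association protein RASSF2 (1.60 to 0.608 FPKM, -1.26), and of the KIBRA relatives WWC2 (2.60 to 1.15 FPKM, -1.09) and WWC3 (3.14 to 2.13 FPKM, -0.54) among genes at 1 FPKM or more. Among the rises were those of the kinases TAOK2 (9.08 to 14.4 FPKM, 0.66), TNIK (2.18 to 3.44 FPKM, 0.64) and MINK1 (13.2 to 19.9 FPKM, 0.60), which act beside or above MST. MOB1B, a LATS cofactor named after its values were seen, rose as much as MINK1 (0.743 to 1.18 FPKM, 0.60).

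Of the 11 angiomotins and junction scaffolds, 9 were tested, and 4 were lower, 5 did not pass and none was higher. AMOT, which anchors YAP at junctions and actin as AMOTL2 does, fell from 3.55 ± 0.218 to 1.73 ± 0.0355 FPKM (log2 fold change -0.99, adjusted p = 3.14e-05, limma). AMOTL1 was the most abundant angiomotin, at 39.4 ± 0.702 FPKM in shALKBH5 and 36.7 ± 3.01 FPKM in shCtrl cells (0.10, adjusted p = 0.182, limma). It passed, at 0.16, only when shCtrl replicate 2 was left out. The polarity scaffolds LIN7C (2.06 to 1.28 FPKM, -0.66) and PALS1 (1.54 to 1.05 FPKM, -0.52) also fell, and PALS1 did not pass with no expression filter, without shALKBH5 replicate 2, without shALKBH5 replicate 3 or without shCtrl replicate 2.

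Of the 12 LIM and STRIPAK genes, whose products hold back the Hippo kinases, 11 were tested, 2 were higher, 4 were lower and 5 did not pass. The LIM proteins AJUBA, which restrains LATS kinases (6.49 ± 0.113 to 2.95 ± 0.0774 FPKM, log2 fold change -1.11, adjusted p = 4.44e-06, limma), and LIMD1 (1.42 to 0.665 FPKM, -0.99) fell by about as much as AMOTL2. The STRIPAK subunit SIKE1 rose from 2.16 ± 0.135 to 4.57 ± 0.373 FPKM (1.05, adjusted p = 4.1e-05, limma), and STRN4, a striatin of the same phosphatase complex, rose by less (0.26). SLMAP, which brings the complex to MST, fell from 1.19 to 0.824 FPKM (-0.47) and lost its call without shALKBH5 replicate 2, without shALKBH5 replicate 3 or without shCtrl replicate 2.

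Among TEAD factors and VGLL cofactors, 4 of 7 genes were tested, 1 was higher, 2 were lower and 1 did not pass. TEAD4 fell from 26.6 ± 1.08 to 16.6 ± 0.166 FPKM (log2 fold change -0.67, adjusted p = 1.43e-05, limma) and TEAD2 from 13.9 ± 0.485 to 8.46 ± 0.401 FPKM (-0.71, adjusted p = 3.04e-05, limma). TEAD3 was at 4.40 ± 0.603 and 4.27 ± 0.489 FPKM in shCtrl and shALKBH5 cells (-0.04, adjusted p = 0.806, limma). The corepressor VGLL4, which competes with YAP for TEAD, rose from 8.28 to 9.81 FPKM (0.24). The summed level of TEAD1 to TEAD4 was 37.3, 35.9 and 38.7 FPKM in shALKBH5 and 50.4, 50.4 and 50.6 FPKM in shCtrl libraries. TEAD1 made up 21.3% ± 1.46 of the sum in shALKBH5 and 11.0% ± 2.19 in shCtrl cells, so the mixture as well as the total differed.

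Of the 19 further YAP and TAZ target genes, 17 were tested, and 7 were lower, 4 were higher and 6 did not pass. The matricellular proteins CCN2 and CCN1, the best known targets, fell from 87.4 ± 2.40 to 32.8 ± 1.13 FPKM (log2 fold change -1.41, adjusted p = 5.93e-07, limma) and from 65.8 ± 1.96 to 32.5 ± 0.715 FPKM (-1.02, adjusted p = 1.43e-06, limma). CRIM1, a transmembrane protein that binds BMPs, fell from 40.1 to 14.9 FPKM (-1.42), the membrane repair protein MYOF from 27.5 to 11.2 FPKM (-1.29), and the receptor tyrosine kinase AXL from 80.4 to 46.1 FPKM (-0.80). CCDC80 (-0.83) and NT5E (-0.33) were the remaining falls, named here after their values were seen. NT5E did not pass with no expression filter, without shALKBH5 replicate 1, without shALKBH5 replicate 3, without shCtrl replicate 2 or without shCtrl replicate 3.

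The list did not move as a block. IGFBP3, an IGF-binding protein, rose from 13.01 ± 0.260 to 26.2 ± 1.62 FPKM (log2 fold change 1.00, adjusted p = 5.91e-06, limma), and FOXF2 (1.34 to 1.78 FPKM, 0.38), GADD45A (15.8 to 19.4 FPKM, 0.29) and FJX1 rose less. FOXF2 did not pass with the replicate number as a block (adjusted p = 0.0539, limma), without shALKBH5 replicate 1, without shALKBH5 replicate 3 or without shCtrl replicate 1, and without shALKBH5 replicate 3 the list had 2 rises in place of 4. The median over the 17 was -0.15, beside 0.09 for all genes. The list's FPKM summed to between 236 and 243 in shALKBH5 libraries and between 386 and 390 in shCtrl libraries, and CCN2, CCN1 and AXL were its 3 most abundant genes in both groups.

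**Figure D3:**
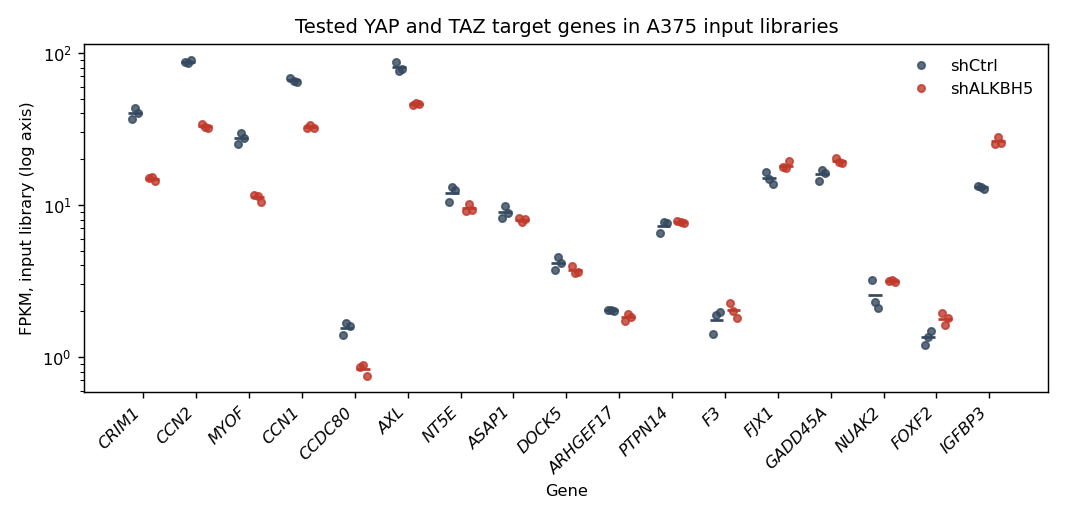
FPKM of the 17 tested YAP and TAZ target genes in the 6 input libraries (vertical log axis, 1 point per library, bars for the group means), ordered from the largest fall to the largest rise. All shALKBH5 points sat below the shCtrl points for 9 genes, CRIM1, CCN2, MYOF, CCN1, CCDC80, AXL, NT5E, ASAP1 and ARHGEF17. They sat above them for 4 genes, IGFBP3, FOXF2, GADD45A and FJX1.

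The m6A data were the authors' peaks, 1 list per group and no value per library, so none of the peak differences has a replicate check. Each peak has a fold enrichment of IP over input, which is relative to the gene's own input, and its span is genomic and may cross introns. All 10 genes had a peak in both lists, as did 82.6% of the genes tested. Together they had 58 peaks among 46039 in the shALKBH5 list and 49 among 44304 in the shCtrl list, and 43 pairs of peaks overlapped on the same strand of the same gene and were each other's best match. Of the members' peaks, 15 and 6 were unpaired, against 32.9% and 30.3% of all peaks in the shALKBH5 and shCtrl lists.

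Peaks of the cadherins and of the other members were annotated differently. Of the 58 and 49 peaks, 29 and 26 were annotated as exonic, and every one of them was in DCHS1, FAT1 or FAT4, which held 37 and 32 peaks. Over all peaks 13.3% (95% Wilson interval 13.02 to 13.64) and 13.4% (13.12 to 13.75) were exonic, intervals that cover counting error only. FAT4 alone had 16 exonic peaks in the shALKBH5 and 13 in the shCtrl list, FAT1 had 7 and 8, and DCHS1 had 6 and 5. DCHS1 and FAT1 also had 3'UTR peaks, FAT4 had none, and all 3 cadherins had 5'UTR peaks. LATS1, LATS2, AMOTL2, YAP1, WWTR1, TEAD1 and ANKRD1 had peaks classed as 3'UTR or 5'UTR and none classed as exonic, but the class is given to a whole span, and the widest of these spans crossed introns and other exons.

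Of the 43 pairs, 23 had the higher fold enrichment in the shALKBH5 list and 20 in the shCtrl list, against 45.9% higher over all 30894 pairs. By more than 1.5 times, 12 were higher and 4 were lower, where 16.3% and 17.2% of all pairs were, and by more than 2 times 6 were higher and 1 was lower, where 8.66% and 8.98% of all pairs were. The median log2 ratio was 0.07 over the members' pairs and -0.05 over all pairs, with an SD of 0.807 between pairs. The 12 came from FAT4 (6 pairs), DCHS1 (3) and LATS1, TEAD1 and ANKRD1 (1 each), and none from FAT1, LATS2, AMOTL2, YAP1 or WWTR1. Ratios this far from 1 were more frequent in genes of low level. They made up 52.1% of all pairs in genes under 0.5 FPKM, where FAT4 lies, and 33.9% from 0.5 to 5 FPKM, where DCHS1 and LATS1 lie, but 20.7% from 5 to 20 FPKM and 14.05% at 20 FPKM or more.

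**Figure D4:**
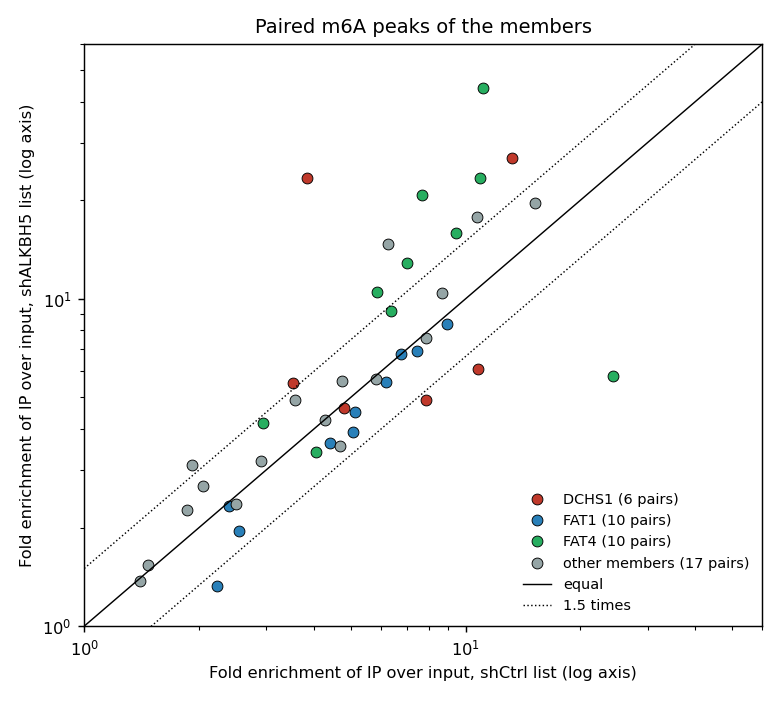
Fold enrichment of the 43 paired peaks in the shCtrl list (horizontal log axis) against the shALKBH5 list (vertical log axis), 1 point per pair, coloured for DCHS1, FAT1, FAT4 and the other members, with a line of equal values and dotted lines at 1.5 times. Most pairs of FAT1 lay near the line of equal values, mostly under it, with 1 at 1.33 and 2.23 past the lower dotted line, and those of FAT4 and DCHS1 were scattered to both sides, with the DCHS1 pair at 3.83 and 23.3 farthest from it.

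DCHS1 had 8 peaks in the shALKBH5 list and 7 in the shCtrl list, and its pairs moved both ways. At the 3' end of the gene, the 3'UTR peak had a fold enrichment of 4.90 in the shALKBH5 list (6621330 to 6621779) and 7.89 in the shCtrl list (6621330 to 6621928), and the exonic peak beside it had 6.12 (6622377 to 6624322) and 10.8 (6622258 to 6624781). Both were thus lower in the shALKBH5 list, by 1.61 and 1.76 times. Farther upstream, an exonic peak was at 23.3 in the shALKBH5 list (6630343 to 6630761) and 3.83 in the shCtrl list (6630462 to 6630672), a ratio of 6.08.

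The values of this peak recurred in the list, since a fold of 23.3 with a log10 p of -5.54 was shared by 77 peaks, among them a peak of FAT4. Directly beside the partner peak, the shCtrl list also held an unpaired peak of fold 1.74 (6630343 to 6630402), with an FDR above 0.05, that lay within the shALKBH5 peak. The 5'UTR peak was at 26.9 in the shALKBH5 list and 13.2 in the shCtrl list, with spans of 14249 and 21554 bases, and the values of the former were shared by 41 peaks.

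The other DCHS1 pairs were an exonic peak at 5.51 in the shALKBH5 and 3.53 in the shCtrl list (from 6627121 and 6626942) and an exonic peak at 4.64 and 4.81 (from 6632347 and 6632228), which were nearly equal. Unpaired in the shALKBH5 list were exonic peaks of fold 3.06 (6626942 to 6627002) and 7.26 (6634286 to 6641471). The former lay within the shCtrl peak of 3.53 that was paired with 5.51, and the latter within the span of the shCtrl 5'UTR peak. The authors' table of differential peaks listed 4 regions of DCHS1, in the 3'UTR (6621330 to 6621928), in exons (6622258 to 6624751 and 6630462 to 6630761) and in the 5'UTR (6634256 to 6655809). The table listed a region for 32.7% of the genes tested.

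**Figure D5:**
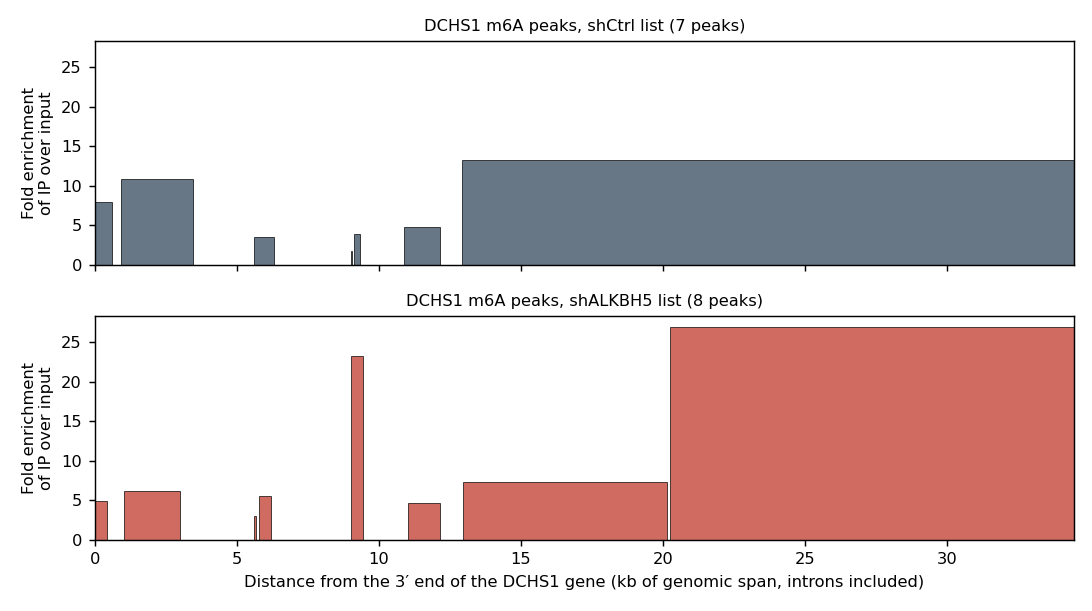
Fold enrichment of each DCHS1 peak (vertical axis, bar height) over its genomic span, by distance from the 3' end of the gene in kb (horizontal axis), for the shCtrl list above and the shALKBH5 list below. The shCtrl list has its taller narrow bars at the 3' end, and the shALKBH5 list has a narrow bar of 23.3 inside the gene and a wide 5'UTR bar of 26.9.

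FAT4 had 18 peaks in the shALKBH5 and 14 in the shCtrl list and 10 pairs, 8 of them higher in the shALKBH5 list. The widest exonic pair was at 44.1 against 11.1 (from 125319869 and 125319630), and the last pair toward the 3' end was at 20.8 against 7.66 (from 125490297 and 125490177). At that end the shCtrl list also held an unpaired exonic peak of fold 47.2 (125491285 to 125491944), the highest of FAT4 in either list, which overlapped the paired shALKBH5 peak and an unpaired shALKBH5 peak of fold 20.8 (125491734 to 125492273). Likewise an exonic pair at 10.5 and 5.84 (from 125317593 and 125317833) had beside it an unpaired shCtrl peak of fold 17.9 (125318252 to 125318761) that overlapped the same shALKBH5 peak. An unpaired shCtrl peak of fold 6.57 (125450387 to 125450776) overlapped the shALKBH5 peaks of the pairs at 9.19 and 6.38 and at 12.9 and 7.02. Another of fold 17.9 (125451165 to 125451435) touched the shALKBH5 peak of 12.9. These pairs alone therefore do not give the direction of their regions. Its 5'UTR pair went the other way, at 5.82 and 24.3. The input level of FAT4 behind these folds was 0.202 and 0.281 FPKM. Of its peaks, 8 and 4 were unpaired, the most of any member.

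FAT1, with its near-equal expression, had 11 peaks in each list and 10 pairs, 9 of them lower in the shALKBH5 list by small amounts. The exonic pair with the highest fold spanned the same bases in both lists (186592719 to 186597207) and was at 8.35 and 8.95. Another exonic pair (186617070 to 186619376) was at 6.76 and 6.75. The exception in size was a 3'UTR pair of low fold, at 1.33 and 2.23.

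In the Hippo kinases, the LATS1 peaks in the annotated 3'UTR had folds of 14.7 and 6.25 (from 149661741 in both lists) and of 10.4 and 8.69, and its 5'UTR pair had 4.26 and 4.29. These LATS1 3'UTR peaks spanned 14444 and 18561 bases in the shALKBH5 list and thus crossed introns. LATS2 had 1 peak in each list, of 87178 bases from 20974409 to the start of the gene, at 19.6 and 15.2. A peak of that span covers nearly the whole gene and does not place the mark.

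AMOTL2 and YAP1 had pairs within 1.5 times of each other in the lists, at lower expression in shALKBH5 cells. The AMOTL2 pairs were at 4.90 and 3.57, at 7.61 and 7.85 in the 3'UTR, and at 3.19 and 2.90 in the 5'UTR, the shALKBH5 list first. The first of them reached from 134351852 to 134356561 and so ran past the annotated end of the gene. The main YAP1 peak, in the 3'UTR, was at 5.59 in the shALKBH5 list (102227476 to 102230613) and 4.75 in the shCtrl list (102227506 to 102230344), and the smaller pairs were at 2.67 and 2.05 in the 3'UTR and at 2.36 and 2.50 in the 5'UTR. Although all 6 pairs lay within 1.5 times, the authors' table of differential peaks listed regions over some of them. For AMOTL2 these were in the 3'UTR (134356024 to 134359307) and in the 5'UTR (134371004 to 134371886). For YAP1 both lay in the main 3'UTR peak of the shALKBH5 list (102227476 to 102230344 and 102230463 to 102230613).

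WWTR1, the most abundant of the 10 genes, had the lowest median fold enrichment of them in both lists. Its 3'UTR pairs were at 1.54 and 1.47 and at 1.37 and 1.40, and a 5'UTR peak of 3.18 that stood unpaired in the shALKBH5 list had an FDR above 0.05. TEAD1 was at 17.8 in the shALKBH5 and 10.7 in the shCtrl list for a 5'UTR peak of 89971 and 89941 bases, and at 3.55 and 4.67 and at 2.27 and 1.86 for its 3'UTR pairs. The ANKRD1 peak in the 3'UTR was at 5.68 and 5.81 (from 90912096), and its 5'UTR pair was at 3.10 and 1.92 over the same 1941 bases. In the authors' table of differential peaks, AMOTL2, YAP1 and ANKRD1 had 2 regions each, FAT1, FAT4 and TEAD1 had 1 each, and WWTR1, LATS1 and LATS2 had none.

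Set side by side by gene, expression and enrichment followed no common order. YAP1, AMOTL2 and ANKRD1 were lower in shALKBH5 cells with median log2 ratios of their pairs of 0.23, 0.14 and 0.33. LATS1, LATS2 and TEAD1 were higher, with median log2 ratios of 0.26, 0.37 and 0.29. DCHS1 had 0.30 over 6 pairs that went both ways, and these leave out 2 unpaired shALKBH5 peaks and 1 unpaired shCtrl peak. FAT1 had -0.17 and WWTR1 had 0.02. FAT4 had 0.80 over its pairs, which leave out its 4 unpaired shCtrl peaks of fold 47.2, 17.9, 17.9 and 6.57. They also leave out its 8 unpaired shALKBH5 peaks of fold 2.69 to 20.8. The enrichment is relative to the input of the gene, and the lists give no error for these ratios.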

How the data were processed

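Expression and m6A peaks of A375 cells were analysed, with 3 shALKBH5 and 3 shCtrl input libraries and groups taken from the sample labels. The values deposited by the authors for expression are FPKM without read counts. The deposited peaks come as 1 list for each group, and each peak has a ratio of IP to input called its fold enrichment. Beside it the authors give the log10 of p and of FDR, treated here as a score. The aligner, peak caller and annotation are not given in the sources used here. The labels name the mouse build mm10, whereas the deposited coordinates of the human genes match RefSeq GRCh38.p14. Starts of peaks count from 0 in the deposited lists and were changed to count from 1. Fold changes, p-values and q-values of the authors' own comparisons stand in the expression and differential-peak tables and were not used. From the latter only positions, annotations and gene names were taken.

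The count test of the study cannot be run on FPKM, so log2(FPKM + 0.1) was fitted with lmFit and eBayes (trend) of limma 3.58.1 in R 4.3.3, two-sided, for the 12985 genes averaging 0.5 FPKM or more, with Benjamini-Hochberg adjustment over all of them. A fold change on this scale understates that of low genes. The depth of the libraries is unknown: low FPKM values showed no common step, the most common ratio between replicates 1 and 2 making up 0.452% of low values in shALKBH5 and 0.351% in shCtrl. The 3 libraries per group limit the precision. Tested on simulated data for shALKBH5 against shCtrl with 12985 genes, of which 200 were changed by 1 on the log2 scale, the fit recovered 83.5% of them and 4.02% of its calls were false. The simulation changed far fewer genes than the 61.0% called in the data, and all by 1 size. Its shares therefore do not describe the calls made here.

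Peaks of the lists were paired where each was the other's best overlap (1 bp or more) within the same gene and strand. Python 3.11.15 with pandas 2.3.3, numpy 2.4.6 and matplotlib 3.10.9 did the rest. The members and lists were chosen with earlier results of these data known, so members have no p and lists no set test. Named were the 10 members, ALKBH5, from each list the 3 largest rises and falls among genes past 0.05 with at least 1 FPKM in the higher group, the 5 genes most like DCHS1, and DCHS2, FAT3, FJX1, STK3, STK4, SAV1, NF2, AMOT, AMOTL1, TEAD2, TEAD3, TEAD4, VGLL4, CCN1, CCN2 and AXL. Tried beside this were no filter, a filter at 1 FPKM, pseudocounts of 1 and 0.01, median-ratio rescaling, no trend, a replicate block, leaving out each library, and for peaks stricter thresholds, a reciprocal overlap of 50% and a ratio past 2. CRB3 was not analysed here, and PALS1 was matched as MPP5. Sequences under the peaks were not analysed here.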

Additional observations from a re-analysis of the deposited data

How the results depend on the processing

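The direction of the 9 members past the expression filter held under all alternatives, except that FAT1 and WWTR1, near 0, changed sign when shCtrl replicate 2 was left out, and FAT1 also without shALKBH5 replicate 2 (0.057). The count of higher genes among Dachsous and FAT cadherins with FJX1 was 1, and 0 with median-ratio rescaling. Leaving out each library in turn it ranged from 0 to 1, that of angiomotins and junction scaffolds from 0 to 1 (1 without shCtrl replicate 2), and that of YAP and TAZ target genes from 2 to 4 (2 without shALKBH5 replicate 3), with 6 to 8 lower. Members with all shALKBH5 values above all shCtrl values were 2 in place of 3 after rescaling. With no filter 1 of the Dachsous and FAT list was lower. Peak pairs of the members past a ratio of 2 were 6 higher and 1 lower, and with a reciprocal overlap of 50% 2 were lower by more than 1.5 times. TEAD3, not called, ranged from -0.15 to 0.05 with a library left out, and was above 0 without shALKBH5 replicate 1 (0.025) and without shCtrl replicate 1 (0.047). Over the named genes that are not members, the markers S100B, MITF, LUM and KRT14 included, 561 values kept direction and call, 27 lost the call (FJX1, FOXF2, PALS1, SLMAP, NT5E and MITF) and 1 gained it (AMOTL1). Over all genes, calls went from 4509 higher and 3408 lower to 3769 and 3913 after rescaling, which moved the median log2 fold change from 0.09 to 0.01.

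Replicate numbers 1 to 3 are shared by the groups, but same-numbered libraries did not deviate together (correlations of 0.018, -0.046 and 0.059), so the numbers were not taken as pairs. With the replicate block FOXF2 and MITF lost their calls (adjusted p = 0.0539 and 0.0892, limma), and the wider lists had 17 genes higher and 29 lower, in place of 21 and 30, and all genes 4142 and 3129. Not every library correlated best with its own number. Depth cannot be recovered from FPKM, and the peak lists allow no error.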
